A study of Mus musculus with 2 samples.

Results

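The genes described here are 9 members of the lymphoid chemokine and lymphotoxin axes, read as counts of unique molecular identifiers (UMIs, 1 per captured RNA molecule) in single cells of mouse pancreatic tumours. They were taken by name from the 32285 genes in each deposited matrix: the chemokines Ccl21a, Cxcl13 and Cxcl12, their receptors Ccr7, Cxcr5 and Cxcr4, the lymphotoxin chains Lta and Ltb, and the lymphotoxin beta receptor Ltbr. Ccl21a was listed under 2 identifiers, and the row of ENSMUSG00000095320 held 0 UMIs in both libraries, so its values come from ENSMUSG00000094686. The names were chosen with earlier results of these data known.

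Lymphoid chemokines guide immune cells into and within lymph nodes. CCL21 draws CCR7-bearing dendritic cells and naive T cells, CXCL13 draws CXCR5-bearing B cells and follicular helper T cells into follicles, and CXCL12 retains CXCR4-bearing cells in bone marrow and stroma. Lymphotoxin alpha is secreted as a trimer that binds TNF receptors, or is held at the lymphocyte surface by lymphotoxin beta; the surface form engages LTBR on stromal, epithelial and myeloid cells, which activates the alternative NF-kB pathway and, in lymphoid stroma, chemokine genes including Cxcl13 and Ccl21a. The same genes mark tertiary lymphoid structures, the lymph node-like aggregates found in some tumours.

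KPC cells, a mouse pancreatic cancer line, had been implanted in the pancreas, and tumours were taken at day 21. The control mice carried Porcnfl/fl alleles without Cre, and the knockout mice were Csf1r-Cre;Porcnfl/fl littermates. Porcn encodes the acyltransferase that Wnt ligands need for secretion, and the Csf1r promoter drives Cre in monocytes, macrophages and other myeloid cells. Tumours of 5 mice were pooled into 1 library for each genotype, so there are no replicates: no difference below was tested, and every interval is an exact 95% interval for counting error, which leaves out the spread between mice and libraries.

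After filtering, 11516 control and 10467 knockout cells were kept, with medians of 12167.5 and 10109 UMIs. The matrices shared 46 barcodes, 0.334% of the control and 0.375% of the knockout barcodes. Cells were clustered without the members among the clustering genes and named from markers; the ending "-like" records that the names rest on markers alone. The libraries differed in makeup: T-like cells were 190 (1.65%) in the control and 1630 (15.6%) in the knockout library, B-like cells 8 (0.0695%) and 449 (4.29%), and epithelial/tumour-like cells 9047 (78.6%) and 5482 (52.4%). Unnamed clusters held 4.35% and 5.00% of the kept cells. Porcn itself was read at 8 and 4 UMIs in monocyte/macrophage-like cells, 3.28 and 1.43 counts per 1000000 UMIs of the class (CPM). Where its 3' tags lie relative to the deleted part was not examined, so these counts do not check the labels.

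For each library the UMIs of all cells in a class were added up and given as CPM of the class, and log2 ratios are knockout over control with 1 UMI added. CPM values are compared between cells, not between genes. Over all kept cells 6 of the 9 members were at least 2-fold higher in the knockout library and 0 at least 2-fold lower, against 11.7% and 2.69% of the 19425 genes with at least 20 UMIs. Ltb stood at 4.68 CPM in the control and 56.0 CPM in the knockout library (log2 ratio 3.58, 3.47 to 3.69). Ccr7 stood at 0.818 and 5.75 CPM (2.80, 2.55 to 3.09). Lta stood at 0.201 and 1.39 CPM, from 34 and 180 UMIs (2.76, 2.25 to 3.36). Those 3 genes are lymphocyte and dendritic cell genes, and so is Cxcr5, which stood at 0.385 and 2.41 CPM (2.63, 2.26 to 3.06). Ccl21a was at 1.88 and 9.59 CPM (2.34, 2.17 to 2.53), and Cxcr4 at 1.56 and 4.38 CPM (1.48, 1.27 to 1.70). The other 3 members were lower, each by less than 2-fold: Cxcl13 at 9.26 and 6.40 CPM (-0.53, -0.66 to -0.41), Cxcl12 at 47.9 and 36.6 CPM (-0.39, -0.44 to -0.34), and Ltbr at 33.5 and 23.2 CPM (-0.53, -0.60 to -0.47). The direction for Cxcl13 was not stable and is taken up with that gene.

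**Figure D1:**
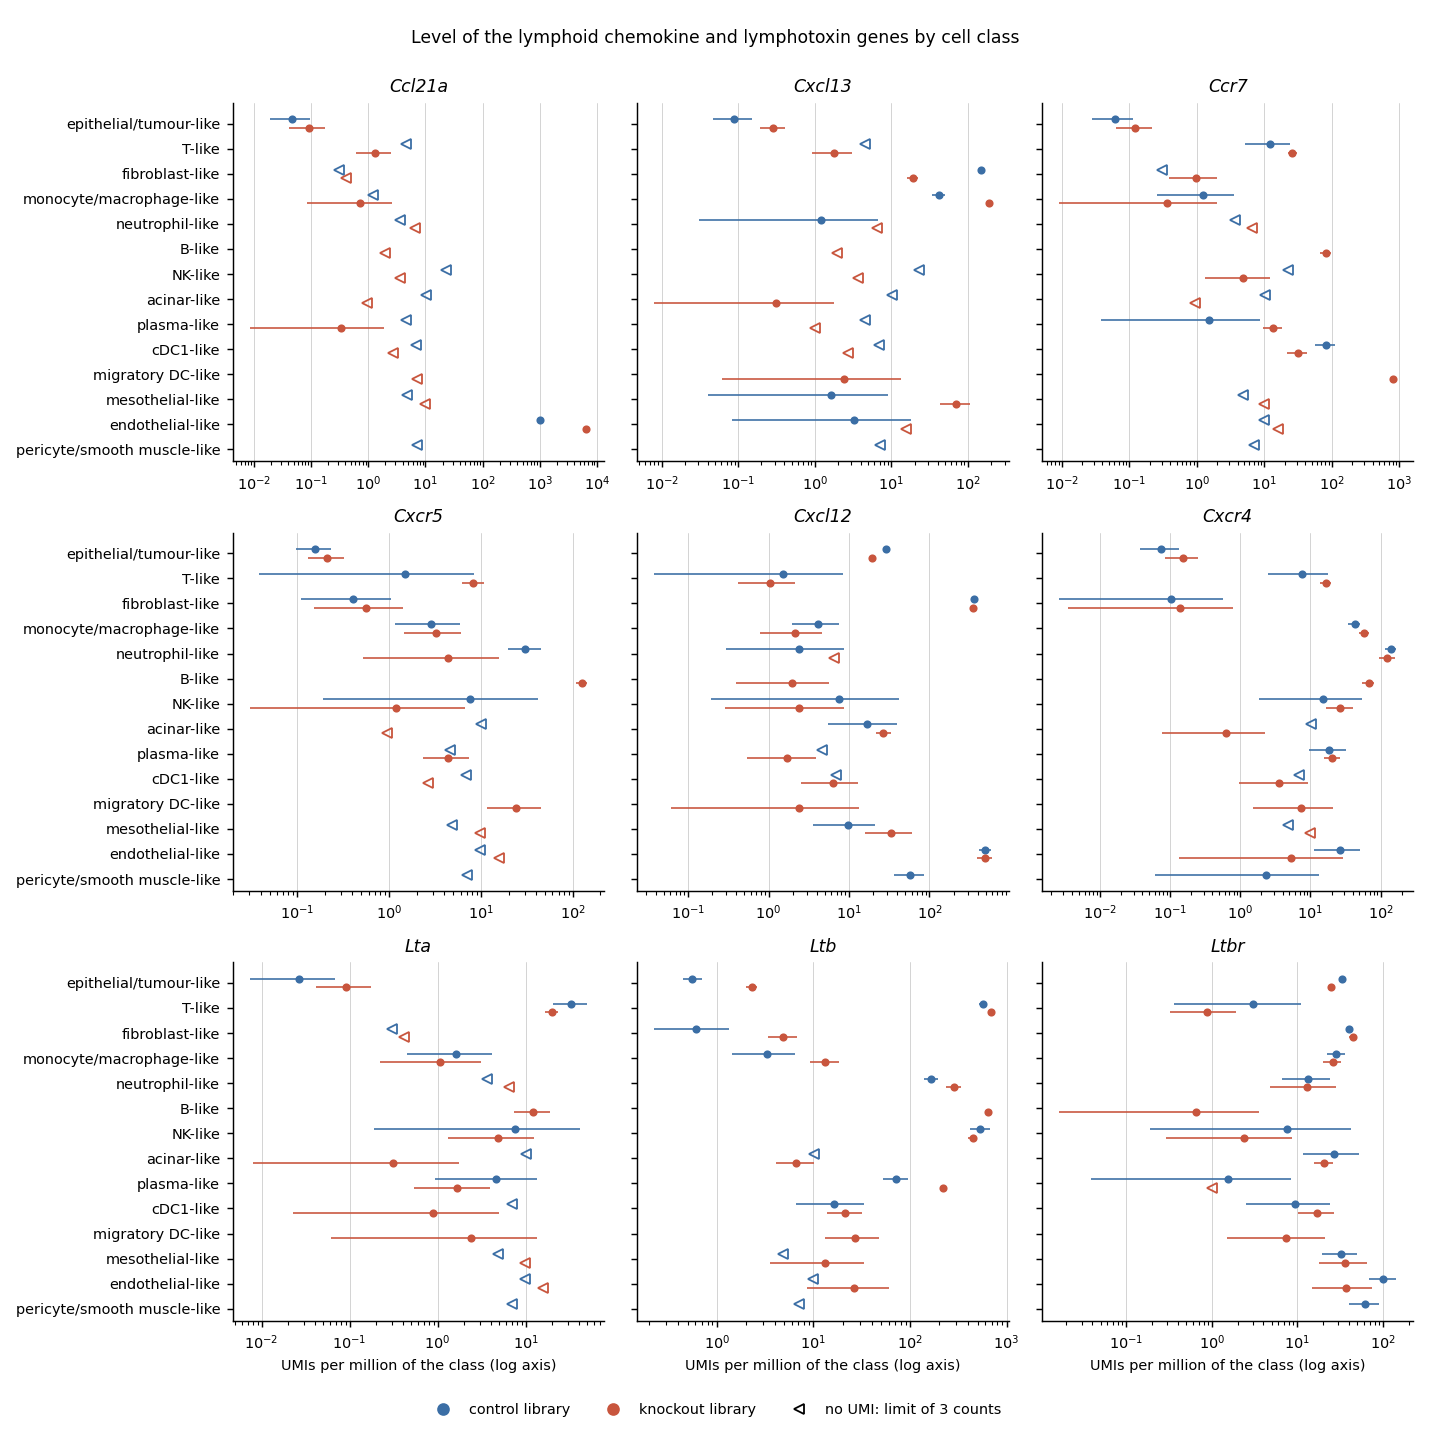
Level of each of the 9 genes by cell class in the control and knockout libraries, in CPM on a log scale, with exact 95% Poisson intervals for counting error; open triangles mark the limit of 3 counts where no UMI was read, and profiles of under 20 cells are not drawn. Knockout Ccr7 is highest in migratory DC-like cells, at 811 CPM, and Ccl21a is highest in endothelial-like cells, at 1.01e+03 and 6.35e+03 CPM.

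To see how much of these ratios went with the makeup of the libraries, each class level was weighted by that class's share of the control library's UMIs. At that fixed composition the log2 ratio was 0.11 for Ccr7, -0.02 for Cxcr5, -0.03 for Lta and 0.29 for Cxcr4. Those 4 genes thus stood within 0.3 of 0 once the class shares were held, although 3 of them had been above 2.6. Each value is a weighted sum over classes without an interval, so it does not show that levels within classes were alike. For Cxcr5 the class estimates given below went opposite ways, lower in neutrophil-like and higher in T-like cells of the knockout library. With classes weighted by cells instead of UMIs, Cxcr5 stood at -0.57 and Lta at -0.44. Ltb kept a ratio of 0.86, and Ccl21a one of 2.63, larger than over all cells. Epithelial/tumour-like cells carried 88.0% of the weight. The Ltb value thus also takes in the low levels of that class, given below, and is not a ratio within lymphocytes. Cxcl12 stood at -0.29 and Ltbr at -0.40, near their values over all cells, and Cxcl13 at -0.88, or at 0.15 with cell weights.

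**Figure D2:**
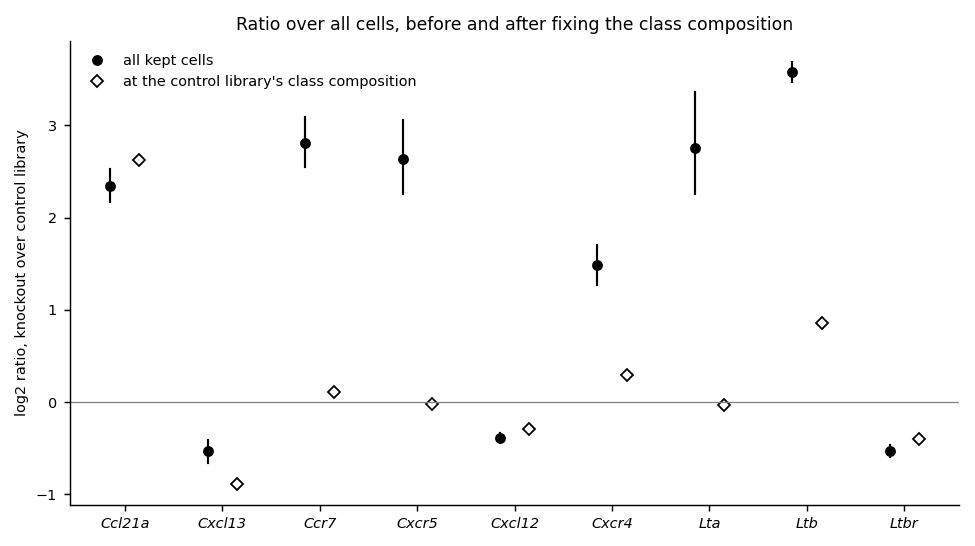
Log2 ratio of knockout over control for each gene over all kept cells (filled, with exact 95% intervals for counting error) and at the control library's class composition (open). Ltb falls from 3.58 to 0.86 and Ccr7 from 2.80 to 0.11, while Ccl21a stays high at 2.63.

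The chemokine Ccl21a (chromosome 4, 42772860 to 42773993, minus strand; positions here are GRCm38) was a gene of very few cells. Endothelial-like cells held 311 of 318 UMIs in the control (97.8%) and 1216 of 1239 in the knockout library (98.1%), at 1.01e+03 and 6.35e+03 CPM. They came from 4 of 44 and 4 of 23 endothelial-like cells. The control cells held 271, 23, 13 and 4 Ccl21a UMIs, and the knockout cells 617, 469, 116 and 14. The knockout cells with 617 and 469 were deep, at 33919 and 52235 UMIs in all, against endothelial-like medians of 4474 in the control and 3700 in the knockout library. The ratio over all cells thus compares 4 cells with 4, and the libraries overlap cell by cell. All 8 cells also held UMIs of Prox1, Lyve1 and Mmrn1, genes of lymphatic endothelium, none of which was read in the other 40 control and 19 knockout cells. Genes of high endothelial venules, the postcapillary vessels through which lymphocytes enter lymph nodes, were nearly absent from the class: Madcam1 was read in 3 of the 40 control cells without Ccl21a, Glycam1 in 1 and Chst4 in 0. In the knockout endothelial-like cells Madcam1, Glycam1 and Chst4 were all at 0. Fibroblast-like cells held 0 Ccl21a UMIs in 639 control and 733 knockout cells, which allows shares of up to 0.469% and 0.409% of cells with a UMI. Whether this class includes cells like the stromal source of CCL21 in lymph nodes was not examined. Ccl21a has near-identical copies in the mouse genome; Ccl21b, Ccl21c and Gm13304 were at 0, and Gm21541 at 0 and 5 UMIs, so how reads were split among the copies is uncertain. With doublets kept, or at Leiden resolution 2, the Ccl21a cells fell in an unnamed cluster.

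Cxcl13 (chromosome 5, 95956951 to 95961068, plus strand) came from fibroblast-like and monocyte/macrophage-like cells, and the 2 classes stood in opposite directions. Fibroblast-like cells held 1444 UMIs in the control and 137 in the knockout library, 147 CPM (140 to 155) and 19.0 CPM (16.0 to 22.5), a log2 ratio of -2.94. Monocyte/macrophage-like cells held 102 and 525 UMIs, 41.9 CPM (34.1 to 50.8) and 188 CPM (172 to 205), a log2 ratio of 2.15 (1.86 to 2.49). Fibroblast-like cells therefore gave 92.4% of the Cxcl13 UMIs of the control library and 16.6% of those of the knockout library, and monocyte/macrophage-like cells 6.53% and 63.5%. The knockout shares and their order hang on 1 fibroblast-like cell called a doublet and left out, whose 855 Cxcl13 UMIs exceed the 525 of all monocyte/macrophage-like cells; with called doublets kept, monocyte/macrophage-like cells gave 30.3%. The difference between the classes was not tested.

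**Figure D3:**
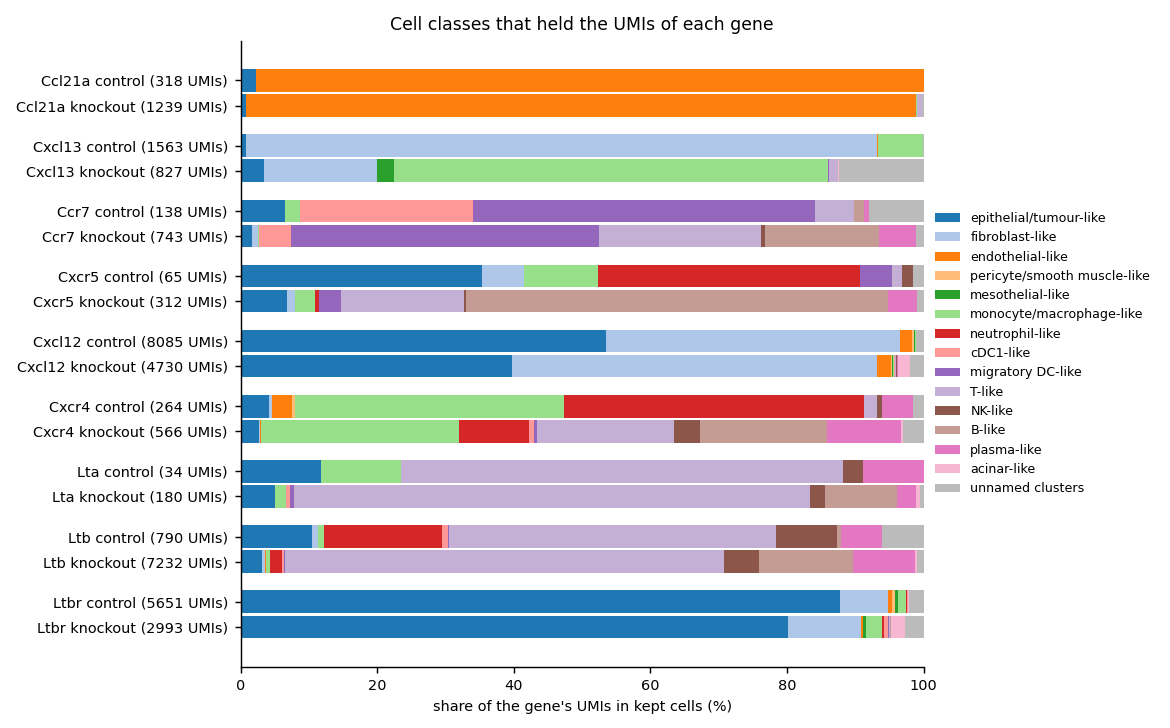
Share of each gene's UMIs that came from each cell class, in percent, for the control and knockout libraries. Cxcl13 UMIs come mostly from fibroblast-like cells in the control (92.4%) and from monocyte/macrophage-like cells in the knockout library (63.5%), an order that turns if the knockout fibroblast-like cell with 855 UMIs, called a doublet, is kept.

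The UMI sums of Cxcl13 rest on few cells. In control fibroblast-like cells the highest cells held 712, 188, 133, 89 and 31 UMIs, 79.8% of the class's Cxcl13, and in knockout fibroblast-like cells 80, 16, 12, 6 and 6, which was 87.6%. The knockout cell with 855 Cxcl13 UMIs among 13447 that was left out as a doublet held 11 Col1a1, 43 Col3a1 and 42 Dcn UMIs, 1 of Krt8 and 0 of C1qa, Cd3e and Pecam1. With called doublets kept the fibroblast ratio was -0.13, and with a stricter cell filter, under which that cell was also kept, 0.0575. The ratio over all cells was then 0.45 and 0.47. The share of fibroblast-like cells with a Cxcl13 UMI moved little: 42 of 639 control cells (6.57%) and 15 of 733 knockout cells (2.05%), at median depths of 12808 and 9093 UMIs. Over the filters, doublet settings and clusterings tried, that share stayed between 6.03% and 6.58% in the control and between 1.94% and 2.74% in the knockout library. After each cell was thinned to 1000 UMIs the shares were 3.15% (1.94 to 4.83) and 0.549% (0.150 to 1.40). Among epithelial/tumour-like cells, taken as the background class, they were 0.0111% and 0.0183% thinned, and 0.144% and 0.438% unthinned at median depths of 13691 and 15619.5 UMIs.

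Different fibroblast clusters filled the class in the 2 libraries, which bears on every fibroblast value here. Cluster S-1, led by Lum, Col1a1 and Saa3, held 160 control and 16 knockout cells, and cluster S-4, led by Col1a1 and Postn, held 108 and 1; clusters S-3, S-12, S-14 and S-15 held 29, 25, 39 and 6 control cells and 116, 97, 92 and 77 knockout cells. Cxcl13 stood at 353 CPM in control and 20.4 CPM in knockout cells of S-1, and at 275 and 150 CPM in S-5, a cluster with 73 and 129 cells that is led by Mfap5 and Dpt. In S-14 it stood at 187 and 2.47 CPM. Within the clusters that held at least 20 cells in each library the Cxcl13 ratio was -1.89. The Cxcl13 cells carried fibroblast genes: Col1a1 was read in 42 of 42 control and 15 of 15 knockout cells. In the control, Cxcl12 was read in 33 of these 42 cells (78.6%) and in 333 of the 597 fibroblast-like cells without Cxcl13 (55.8%).

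In monocyte/macrophage-like cells a Cxcl13 UMI was present in 5 of 508 cells of the control (0.984%) and 21 of 547 of the knockout library (3.84%), at median depths of 2873 and 4038 UMIs. The control cells held 47, 30, 20, 3 and 2 UMIs, and the highest knockout cells 233, 110, 29, 25 and 23. Thinned to 1000 UMIs the shares were 1.01% (0.329 to 2.35) and 2.79% (1.57 to 4.57), intervals that overlap. Nearly all of it lay in cluster L-4, led by the complement genes C1qa, C1qb and C1qc with Ccl8, where Cxcl13 stood at 149 and 519 CPM; clusters L-2 and L-3 held 0 UMIs. C1qa, a macrophage gene, was read in 21 of 21 knockout Cxcl13 cells and in 4 of 5 control ones, and the fibroblast gene Col1a1 in 1 of the 21. Lesser sources in the knockout library were 21 UMIs in 7 mesothelial-like cells, against 1 UMI in the control, and 12 UMIs in 7 T-like cells, against 0 in 190. Unnamed clusters held 1 control UMI and 102 knockout UMIs, the latter in 3 cells. Cxcl13 in epithelial/tumour-like cells was at 0.0875 and 0.285 CPM.

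**Figure D4:**
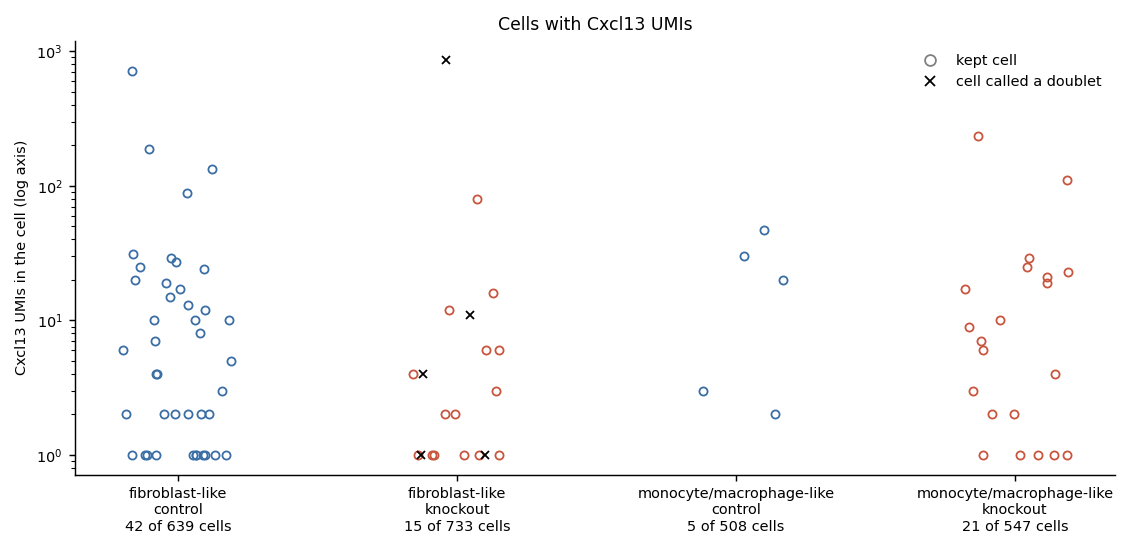
Cxcl13 UMIs in each fibroblast-like and monocyte/macrophage-like cell with at least 1 UMI, on a log scale, by library, with circles for kept cells, crosses for cells called doublets and sideways spread that carries no value. Control fibroblast-like cells reach 712 UMIs, knockout monocyte/macrophage-like cells reach 233, and the topmost cross is the knockout cell with 855.

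Cxcl12 (chromosome 6, 117168535 to 117181367, plus strand) was read in fibroblast-like, endothelial-like and epithelial/tumour-like cells. Fibroblast-like cells stood at 355 CPM in the control and 352 CPM in the knockout library (-0.01, -0.09 to 0.06), from 3477 and 2531 UMIs. That near-equal level hides cluster differences: S-5 stood at 1559 and 957 CPM, S-14 at 1215 and 579 CPM, and S-15, with 6 and 77 cells, at 782 and 780 CPM. Within clusters of at least 20 cells in each library the ratio was -0.73. Endothelial-like cells stood at 489 CPM (414 to 574) and 485 CPM (392 to 595), from 44 and 23 cells. Epithelial/tumour-like cells were at a lower level of 29.1 and 19.1 CPM (-0.61, -0.69 to -0.53), but being numerous they gave 53.5% and 39.7% of all Cxcl12 UMIs. Clusters 7 and 4, which share the leading genes Onecut2, Samd5 and Kirrel3, stood highest among them, at 88.5 and 81.5 CPM and at 62.0 and 43.2 CPM, while cluster 0 stood at 9.90 and 18.1 CPM. Those 2 clusters held 1377 and 1383 control cells, and 318 and 542 knockout cells. T-like cells, as a background, were at 1.50 and 1.03 CPM.

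Ccr7 (chromosome 11, 99144196 to 99155077, minus strand), the receptor for CCL21 and CCL19, stood highest in migratory DC-like cells, at 804 CPM (626 to 1018) in the control and 811 CPM (727 to 903) in the knockout library. It was read in 13 of 18 and 53 of 70 of these cells, which held 69 of 138 and 335 of 743 Ccr7 UMIs. The CPM level in the class was thus alike within counting error, and the class was larger in the knockout library, 0.669% against 0.156% of kept cells. After thinning to 1000 UMIs the shares of these cells with a UMI were 72.2% (46.5 to 90.3) in the control and 40.0% (28.5 to 52.4) in the knockout library. After thinning to 2000 UMIs they were 64.3% and 68.5%. B-like cells of the knockout library stood at 80.6 CPM, with Ccr7 in 95 of 449 cells; the 8 control B-like cells held 2 UMIs. cDC1-like cells, the cross-presenting dendritic cells, stood at 81.2 and 31.2 CPM, from 35 UMIs in 3 cells and 35 UMIs in 7 cells. In T-like cells the level was 12.0 CPM (5.20 to 23.7) and 25.9 CPM (22.2 to 30.0), a log2 ratio of 0.94 (0.09 to 2.34) that rests on 8 control UMIs in 3 cells. The share of T-like cells with a UMI was 1.58% and 7.18% at median depths of 2821.5 and 3328 UMIs, and 1.66% and 2.57% after thinning to 1000 UMIs. Epithelial/tumour-like cells, the background class, had a Ccr7 UMI in 0.0774% and 0.164% of cells.

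The 117 knockout T-like cells with a Ccr7 UMI were compared with those without one, at median depths of 4030 and 3265 UMIs. Genes of circulating naive and central memory T cells were read more often among them: Lef1 in 62.4% against 26.6%, and S1pr1, the receptor for egress from tissue, in 37.6% against 14.6%. Klf2, which drives S1pr1, was read in 53.8% against 29.7%. Foxp3, the regulatory T cell gene, was read in 6.84% and 13.4%. Depth was higher in the Ccr7 cells, and its part in these shares was not tested. By cluster, Ccr7 stood at 69.0 CPM in the 414 knockout cells of L-14, led by Lef1 and Tcf7, a cluster with 17 control cells, and was at 0 UMIs in L-16, led by Cd8a and Nkg7, in both libraries. Of the 5 members with at least 20 UMIs in T-like cells, 1 was at least 2-fold higher (Cxcr5) and 0 lower, against 4.52% and 5.72% of genes.

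Cxcr5 (chromosome 9, 44511787 to 44561877, minus strand), the CXCL13 receptor, was mainly a B-like gene in the knockout library; of its 65 UMIs in the control 25 lay in neutrophil-like cells and 23 in epithelial/tumour-like cells, there at 0.155 CPM. Knockout B-like cells held 193 of 312 UMIs (61.9%), at 124 CPM (107 to 143), in 136 of 449 cells. The 8 control B-like cells held 0 UMIs, which at their depth allows up to 227 CPM. T-like cells held 1 UMI in the control and 56 in the knockout library, 1.50 and 8.24 CPM (1.48, -0.08 to 7.78), in 1 of 190 and 45 of 1630 cells. The interval includes 0, so a difference within T-like cells was not detectable at this depth. Knockout T-like cells with and without Cxcr5 had median depths of 3564 and 3318 UMIs, and the part of depth in the next shares was not tested. Cd4 was read in 44.4% against 26.3%, and Bcl6 in 9 of 45 cells against 10.1%. Il21 was read in 4 cells (8.89%) against 1.32%, and Icos in 57.8% (42.2 to 72.3) against 45.2%. Pdcd1 was at 37.8% and 37.0%. Bcl6, Il21, Icos and Pdcd1 are genes of follicular helper T cells. In CPM, Icos stood at 270 and 266 and Pdcd1 at 145 and 195. Cd4 stood at 170 and 125 CPM, Bcl6 at 62.2 and 30.0 CPM and Il21 at 20.7 and 4.42 CPM. Neutrophil-like cells stood at 30.3 CPM (19.6 to 44.7) and 4.33 CPM (0.524 to 15.6), from 25 UMIs in 20 of 293 cells and 2 UMIs in 2 of 185 cells. Most of the control UMIs lay in cluster L-6, led by S100a8 and Retnlg, at 94.7 CPM against 0 UMIs in 30 knockout cells. This was the 1 of 3 members read in neutrophil-like cells that was at least 2-fold lower, with 0 higher, against 7.29% and 7.42% of genes; with the stricter cell filter, which left 48 and 12 neutrophil-like cells, its ratio was 0.54.

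Cxcr4 (chromosome 1, 128588199 to 128592293, minus strand), the CXCL12 receptor, was a myeloid and B cell gene here. Neutrophil-like cells stood highest among the compared classes, at 141 CPM (116 to 169) and 126 CPM (95.4 to 162), from 116 and 58 UMIs (-0.15, -0.64 to 0.30). Knockout B-like cells stood at 67.7 CPM (55.3 to 81.9), with 105 UMIs in 80 cells. Monocyte/macrophage-like cells stood at 42.7 CPM (34.9 to 51.7) and 58.7 CPM (50.02 to 68.3), a log2 ratio of 0.45 (0.10 to 0.83). Cluster L-3, led by Arg1 and Ms4a4c, was highest among them at 59.0 and 108 CPM, with 49 control and 155 knockout cells, whereas L-2 stood at 62.1 and 27.9 CPM. T-like cells stood at 7.52 and 16.6 CPM (0.89, -0.12 to 2.79), from 5 and 113 UMIs. Epithelial/tumour-like cells had a Cxcr4 UMI in 0.111% and 0.274% of cells, against 17.6% and 13.5% with a UMI of Cxcl12.

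The lymphotoxin genes lie side by side with Tnf on chromosome 17: Ltb at 35194439 to 35196320 on the plus strand, and Lta at 35203165 to 35205351 on the minus strand. Their promoters, and that of Cxcl13, a target gene of the lymphotoxin receptor in lymphoid stroma, are printed so that the letters before the genes can be set beside the values that follow. Promoter sequences from RefSeq (GRCm38.p6) were found for 7 of the 9 members; each is printed 5' to 3' in the direction of the gene, with bases that lie inside the annotated gene left out. Capitals mark TATAAA or a match to the kappa B consensus of NF-kB, each searched on both strands; these motifs were chosen after the sequences had been seen. The windows are chr17:35194257-35194438 for Ltb (plus strand), chr17:35205352-35205601 for Lta (minus strand) and chr5:95956689-95956938 for Cxcl13 (plus strand).
Ltb: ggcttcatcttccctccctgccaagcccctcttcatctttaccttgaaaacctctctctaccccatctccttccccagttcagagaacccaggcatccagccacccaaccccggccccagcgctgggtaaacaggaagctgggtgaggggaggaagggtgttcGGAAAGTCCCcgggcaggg
Lta: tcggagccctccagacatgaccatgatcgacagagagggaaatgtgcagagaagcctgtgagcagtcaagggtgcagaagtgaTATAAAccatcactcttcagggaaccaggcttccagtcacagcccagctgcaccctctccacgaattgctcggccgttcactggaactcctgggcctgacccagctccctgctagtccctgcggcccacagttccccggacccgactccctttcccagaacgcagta
Cxcl13: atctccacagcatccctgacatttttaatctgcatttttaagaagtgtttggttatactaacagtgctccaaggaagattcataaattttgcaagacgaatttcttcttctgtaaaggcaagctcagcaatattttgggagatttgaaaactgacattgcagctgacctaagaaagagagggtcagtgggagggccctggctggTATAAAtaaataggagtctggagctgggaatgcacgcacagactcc
The Ltb window matches the kappa B consensus on the other strand, in the letters GGAAAGTCCC, between 87 and 78 bases before the RefSeq start; 1281 of the 32851 promoter windows of 250 bases in the table (3.90%) hold such a match. Lta holds TATAAA between 167 and 162 bases before its start and Cxcl13 between 46 and 41; 12.4% of promoters hold it. A match is a description of these letters and not a measured site.

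Lta, the secreted chain, was read in few cells. T-like cells held 22 UMIs in the control and 136 in the knockout library, 64.7% and 75.6% of all Lta, at 33.1 CPM (20.7 to 50.1) and 20.01 CPM (16.8 to 23.7), a log2 ratio of -0.78. The share of T-like cells with a UMI was the same, 10 of 190 (5.26%) and 86 of 1630 (5.28%), so the lower level was not accompanied by a lower share of cells. Without the 5 cells with most Lta in each library the ratio was 0.80; that removes 5 of the 10 control cells with Lta but 5 of 86 knockout cells, which raises the ratio by construction. Cluster L-10, led by Tox and Tnfsf8, held 20 of the 22 control UMIs, at 147 CPM against 63.6 CPM in the knockout library. Among knockout T-like cells split by their own UMIs, cells with Cd4 but no Foxp3 stood at 55.9 CPM, Foxp3 cells at 15.9 CPM and Cd8 cells at 8.09 CPM. In the control, cells with Cd4 but no Foxp3 stood at 200 CPM (117 to 321), a log2 ratio of -1.90 (-2.62 to -0.98). That control level came from 17 UMIs in 6 of 22 cells, with 9 UMIs in 1 cell. Control Cd8 cells stood at 4.39 CPM from 2 UMIs, and the 7 control Foxp3 cells held 0 UMIs. Knockout B-like cells stood at 12.2 CPM, with a UMI in 18 of 449 cells. Fibroblast-like and neutrophil-like cells held 0 Lta UMIs in both libraries.

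Ltb, the membrane chain, was the most widespread lymphocyte gene of the set. T-like cells held 378 UMIs in the control and 4642 in the knockout library, 569 CPM (513 to 629) and 683 CPM (663 to 703), a log2 ratio of 0.26 (0.11 to 0.42). It was read in 118 of 190 (62.1%) and 1261 of 1630 (77.4%) T-like cells, and after thinning to 1000 UMIs in 38.7% and 45.7%. The class gave 47.8% of all Ltb UMIs in the control and 64.2% in the knockout library. Knockout B-like cells stood at 641 CPM, against 379 CPM from 5 UMIs in the control, and NK-like cells at 446 CPM against 535 CPM (-0.28, -0.63 to 0.13). Within T-like cells the levels differed by cluster: L-9, led by Tnfrsf4, Ikzf2 and Il2ra, stood at 490 and 1005 CPM and held 23 and 300 cells, while L-16 stood at 648 and 656 CPM with 82 and 458 cells. Split by their own UMIs, Foxp3 cells stood at 356 CPM (178 to 637) in the control, from 7 cells, and at 922 CPM (865 to 981) in the knockout library, from 211 cells; Cd8 cells stood at 612 and 603 CPM.

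**Figure D5:**
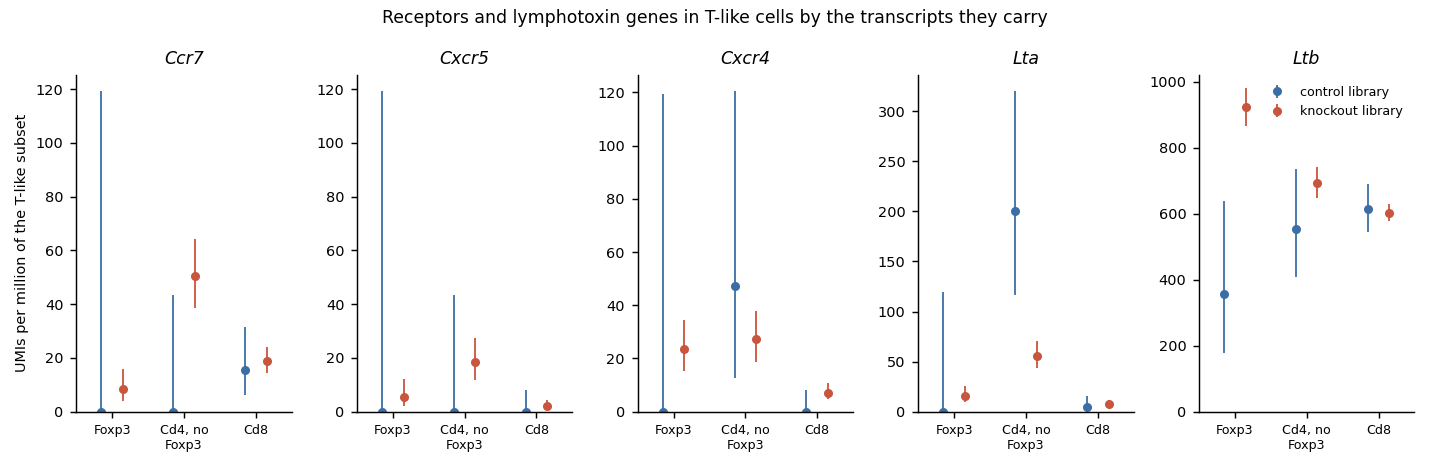
Levels of the receptors and lymphotoxin chains in T-like cells split by their own Foxp3, Cd4 and Cd8 UMIs, in CPM on a linear axis from 0 with exact 95% Poisson intervals, by library. Knockout Ltb is highest in Foxp3 cells at 922 CPM and Lta in Cd4 cells without Foxp3 at 55.9 CPM. Control Lta in Cd4 cells without Foxp3 stands at 200 CPM, from 17 UMIs in 22 cells.

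Outside the lymphocytes Ltb was read in neutrophil-like cells, at 165 CPM (138 to 195) and 284 CPM (237 to 337), a log2 ratio of 0.78 (0.43 to 1.14), and it was higher in the knockout library in each of the 3 neutrophil-like clusters. Plasma-like cells stood at 71.6 and 221 CPM. In classes where Ltb is not a usual gene the level was low but higher in the knockout library: 0.559 and 2.31 CPM in epithelial/tumour-like cells, 0.613 and 4.87 CPM in fibroblast-like cells, and 3.28 and 13.2 CPM in monocyte/macrophage-like cells. Those classes count several members at least 2-fold higher: 3 of 7 in epithelial/tumour-like cells (Ltb 2.04, Cxcl13 1.65, Cxcr4 1.01) with 0 lower, against 4.88% and 2.66% of genes; 1 of 4 in fibroblast-like cells (Ltb 2.81) with 1 lower (Cxcl13), against 8.04% and 6.92%; and 2 of 4 in monocyte/macrophage-like cells (Cxcl13 and Ltb, 1.88) with 0 lower, against 2.74% and 3.54%. In epithelial/tumour-like cells Itga4 stood at 0.545 and 2.31 CPM and Icos at 0.0404 and 0.478 CPM. Of the lymphocyte recirculation genes read, 3 of 7 were at least 2-fold higher in epithelial/tumour-like cells. In fibroblast-like cells 1 of 4 was higher and in monocyte/macrophage-like cells 1 of 6, with 0 lower in each class, against the shares of genes just given. Free RNA from lymphocytes was not measured apart from the cells, and its part in these low levels was not tested.

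Ltbr (chromosome 6, 125306571 to 125313885, minus strand), the receptor, was absent or near absent in lymphocytes, at 3.01 and 0.883 CPM in T-like cells, and broad elsewhere. Epithelial/tumour-like cells gave 87.8% and 80.2% of its UMIs, at 33.4 CPM (32.5 to 34.4) and 24.4 CPM (23.4 to 25.4), a log2 ratio of -0.45 (-0.52 to -0.38). The receptor was lower in the knockout library in all 10 epithelial/tumour-like clusters; cluster 2, led by Lgals4 and Tff2, stood at 71.1 and 30.9 CPM and cluster 1, led by Muc5ac, at 42.2 and 35.6 CPM. Fibroblast-like cells stood at 40.5 CPM (36.6 to 44.7) and 44.8 CPM (40.0 to 49.9), and monocyte/macrophage-like cells at 28.3 CPM (22.0 to 35.8) and 25.8 CPM (20.1 to 32.4); both pairs of intervals overlap. Endothelial-like cells were highest in the control, at 101 CPM (68.7 to 144) from 31 UMIs, and stood at 36.5 CPM (14.7 to 75.3) from 7 UMIs in the knockout library.

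The partner genes of the axes were read beside the members. Ccl19, the other CCR7 ligand, was at 9.19 and 13.9 CPM in fibroblast-like cells, from 90 and 100 UMIs (0.60, 0.17 to 1.02). Ackr3, a scavenger of CXCL12, stood at 200 and 193 CPM in fibroblast-like cells and at 19.7 and 8.94 CPM in monocyte/macrophage-like cells (-1.11). Ackr4, a scavenger of CCL19 and CCL21, stood at 9.39 and 30.7 CPM in fibroblast-like cells, from 92 and 221 UMIs (1.70, 1.35 to 2.08). Ch25h, which makes a precursor of the ligand of GPR183, was lower there, at 11.3 and 1.53 CPM (-2.78), and Gpr183 itself stood at 17.2 and 39.0 CPM in monocyte/macrophage-like cells (1.16).

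Of 11 genes of NF-kB signalling below LTBR, 0 were at least 2-fold higher and 0 lower over all kept cells, and the median log2 ratio was 0.04 against 0.00 for all genes. In epithelial/tumour-like cells, where most Ltbr was read, Map3k14, the kinase of the alternative pathway, stood at 23.0 and 15.7 CPM (-0.55) and Nfkb2 at 51.3 and 41.9 CPM (-0.29). In fibroblast-like cells 1 of the 11 was at least 2-fold lower and 0 higher, against 6.92% and 8.04% of genes in that class. It was the NF-kB inhibitor gene Nfkbia, at 150 and 71.1 CPM (-1.08). Of 7 TNF family partners over all kept cells 3 were at least 2-fold higher, namely Tnf (1.60), Tnfsf14, which encodes the other LTBR ligand LIGHT (1.32), and Tnfsf11 (2.51). Of 9 genes read for lymphoid stroma and high endothelium 3 were higher, namely Cr2 and Fcer2a, which B cells also express, and Fut7. The Fut7 counts, 18 and 58 UMIs over all kept cells, do not place it in endothelial-like cells. In the same list 1 gene was lower, Madcam1 at 18 and 6 UMIs. Of 10 follicular helper and germinal centre genes 7 were higher and 0 lower, among them Cd40lg (3.88) and Icos (3.69); of 7 recirculation genes 6 were higher and 0 lower. The counts over all kept cells stand against the same 11.7% and 2.69% of genes, in libraries whose lymphocyte shares differed as given above. Within T-like cells 3 of 7 recirculation genes were at least 2-fold higher and 0 lower, against 4.52% and 5.72% of genes in that class. Among the 3 were Klf2 at 30.1 and 193 CPM (2.61) and S1pr1 at 24.1 and 62.7 CPM (1.30). Of the 8 follicular helper genes read there 1 was higher and 2 were lower, against the same shares. The higher gene was S1pr2 (1.14, from 1 and 44 UMIs). The lower genes were Tox2 at 24.1 and 5.44 CPM (-2.19) and Il21 at 10.5 and 5.00 CPM (-1.23). The Il21 value comes from only 7 and 34 UMIs.

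The genes whose levels ran most like each member were found by the Pearson correlation of log2(CPM + 10) over 25 class and library profiles of at least 20 cells, among 16095 genes. The profiles come from 2 libraries and share their depth and makeup, so these values are descriptions. Ccl21a ran with Cldn5 (0.999), Mmrn1 (0.998) and Prox1 (0.996), all endothelial genes, and Cxcr5 with the B cell genes Fcrl1 (0.854), Fcer2a (0.850) and Bank1 (0.840). Ltb ran with Tbc1d10c (0.937), Acap1 (0.929) and S1pr4 (0.928), and Lta with Zbtb32 (0.963) and Unc5cl (0.931). Ccr7 ran with Haao (0.877), Gm16094 (0.876) and Flt3 (0.873), the last a receptor of dendritic cell growth. Cxcl12 ran with Ly6c1 (0.943), Pcsk6 (0.937) and Pxdn (0.937), Cxcr4 with Xylt1 (0.906), Dok3 (0.877) and Cyp4f18 (0.874), and Ltbr with Rusc2 (0.916), Bmpr2 (0.912) and Ifitm3 (0.909). Cxcl13 ran with Adora2b (0.879), AI427809 (0.876) and Mmp27 (0.834).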

How the data were processed

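Single-cell RNA was read from 1 control and 1 knockout library, 10x Genomics 3' chemistry per the labels' protocols. The authors deposited raw UMI counts per gene and barcode, without normalisation: 13766 barcodes and 173934025 UMIs in the control and 12251 and 137527647 in the knockout matrix. Cell Ranger 8.0.0 is given per the file headers, and Cell Ranger 3.1.3 with mm10 per the submitters' processing notes; which version made the counts is uncertain. Gene positions were matched by identifier to the GENCODE annotation of GRCm38.

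Barcodes entered with 500 genes or more and a mitochondrial share of UMIs up to 15%. Scrublet (scanpy 1.11.5, expected rate 0.08) called 148 control (1.27%) and 341 knockout (3.16%) doublets, which were removed. The 2000 most variable genes, members left out, gave 30 components, 15 neighbours and Leiden clusters at resolution 1 (igraph 0.11.9, seed 0), and leukocyte and stromal clusters were clustered again. Clusters were named from markers of 22 classes by a rule set after they were seen. Comparisons with the share of all genes, and the gene lists, were limited to all kept cells and classes of 100 or more cells on both sides. Levels and ratios of members are also given for smaller classes. The members and gene lists were chosen with earlier results of these data known.

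UMIs were summed per class and library as CPM with exact Poisson intervals. Ratios have exact conditional binomial intervals and shares of cells exact Clopper-Pearson intervals, all at 95% and for counting error only (scipy 1.17.1); PCR duplicates are removed by the UMI. A count of 0 was given a limit of 3 counts. Shares of cells with a UMI were also taken after thinning each cell to 1000 UMIs, shallower cells left out. With 1 library per group nothing was tested between genotypes. The ratio scripts were tested on simulated data. Named genes were the members, their partner ligands and receptors, list genes with at least 20 UMIs in a class and at least a 2-fold difference, and the 3 genes most like each member; some of these genes are not reported here. Listed genes under 3 CPM in epithelial/tumour-like cells are given in part. Alternatives changed the cell filter, doublet removal, Leiden resolution, class naming, clustering genes, weighting of cells, thinning, composition weights and the UMI minimum.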

Additional observations from a re-analysis of the deposited data

Results flagged for a closer look

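Cxcl13 stood higher in the knockout library in monocyte/macrophage-like cells (log2 ratio 2.15) and in epithelial/tumour-like cells (1.65), and lower in fibroblast-like cells (-2.94). What singled these values out is that the same gene stood in opposite directions in cell classes of the same 2 libraries. The difference was not tested. The epithelial/tumour-like value comes from 13 and 28 UMIs in 13 and 24 cells of 9047 and 5482, and the fibroblast-like value depends on whether 1 knockout cell with 855 Cxcl13 UMIs is kept.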

How the results depend on the processing

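Of the alternative values of the main results 148 kept their direction and size within counting error, 30 moved and 6 changed direction; of the values for other results 244 were the same, 79 moved and 1 changed direction, that of Cxcr5 in neutrophil-like cells. Resolution 0.5 and members allowed in the clustering changed 0 of 45 values each. Cxcl13 depended most on the processing. Over all cells its ratio was 0.47 with the strict filter (1000 genes, 10% mitochondrial UMIs), 0.45 with doublets kept and 0.59 as a mean over cells. In fibroblast-like cells it was 0.0575, -0.13 and -2.33 under those 3 settings. Over all classes at control composition with cell weights it was 0.15. In monocyte/macrophage-like cells it was 2.75 at resolution 2. The strict filter also gave 3.07 for Cxcr5 and 1.94 for Cxcr4 over all cells, 0.54 for Cxcr5 in neutrophil-like cells, 0.13 for Cxcl12 in fibroblast-like cells and 1.21 for Cxcr4 in monocyte/macrophage-like cells. Means over cells gave 1.61 for Ccl21a, -0.44 for Cxcl12, 0.77 for Cxcr4, 3.23 for Ltb and -0.68 for Ltbr over all cells, 0.45 for Ltb in T-like cells and -0.19 for Cxcl12 in fibroblast-like cells. Naming each cell alone gave -0.47 for Cxcl12 in epithelial/tumour-like cells, and cell weights gave -0.57 for Cxcr5 and 0.56 for Ltb. Alternatives chosen after seeing the data left out the 5 cells with most UMIs of the gene in each library: over all cells this gave 1.58 for Ccl21a, -0.10 for Cxcl13, 3.53 for Ccr7, -0.44 for Cxcl12, 3.66 for Lta and 3.69 for Ltb; in T-like cells 0.80 for Lta and 0.43 for Ltb; and -3.59 for Cxcl13 in fibroblast-like cells. Leaving out 5 cells takes a larger part of the smaller library's cells with a UMI. For Ccr7 and Cxcr4 in T-like cells and Cxcl13 in monocyte/macrophage-like cells, where 5 or fewer control cells had a UMI, it left 0 control UMIs, so 3.83, 3.27 and 6.53 come from the 1 UMI added and are no ratios. It likewise left 0 UMIs on one side for Cxcr5 in T-like and neutrophil-like cells and Ltb in monocyte/macrophage-like cells, which says nothing of their stability. Shared fibroblast clusters gave -1.89 for Cxcl13 and -0.73 for Cxcl12. Apart from what each alternative leaves out, the cause was not tested. A minimum of 50 UMIs left 4 list genes at least 2-fold higher in epithelial/tumour-like cells against 7, and no minimum 13; in T-like cells 1 and 9 were lower against 3, and with no minimum 19 were higher in neutrophil-like cells against 5 and 11 in fibroblast-like cells against 3. No paired analysis was possible because each genotype had 1 library. Classes with few control cells, such as the 8 B-like cells, allow no ratio for genes at 0.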

Other observations

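Neutrophil-like cells, which carried Cxcr4 and Ltb, differed between the libraries in genes of the TNF family list. Tnf stood at 219 CPM in the control and 630 CPM in the knockout library (log2 ratio 1.52), Tnfsf14 at 33.9 and 75.8 CPM (1.15) and Tnfrsf1b, a TNF receptor, at 120 and 271 CPM (1.17). Of 4 TNF family genes read in this class 3 were at least 2-fold higher and 0 lower, against 7.42% and 7.29% of genes. Of 11 NF-kB genes 1 was at least 2-fold higher and 0 lower, a share near that of all genes; it was the inhibitor gene Nfkbia, at 1207 and 3198 CPM (1.41). The 2 genes read of the stroma and high endothelium list went opposite ways, Icam1 at 71.5 and 182 CPM (1.34) and Vcam1 at 29.1 and 10.8 CPM, the latter from 24 and 5 UMIs. The class held 293 control and 185 knockout cells, of which cluster L-6 held 99 and 30 and cluster L-13 held 140 and 144, so the clusters that filled it differed.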
